A study of Mus musculus with 6 samples.

Results

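TRiC, also called CCT, is the chaperonin of the eukaryotic cytosol, and its 8 different subunits are encoded by Tcp1, Cct2, Cct3, Cct4, Cct5, Cct6a, Cct7 and Cct8. These 8 genes were taken by symbol from the deposited expression table, where each had 1 row among 41079 listed genes, and all 8 were among the 12227 genes with a mean abundance high enough to be tested. The cells were D10 (D10.G4.1), a single clone of mouse CD4+ helper T cells that recognizes a conalbumin peptide, grown in medium with fetal bovine serum. Non-acclimated T cells were kept for 24 h at 37°C and cold-acclimated T cells for 24 h at 26°C, with 3 libraries each, and the comparison asks how the transcriptome differs after a day in the cold. By label, both groups came from the same clone and were set apart by temperature. The labels also name old and new extraction batches without assigning a library to either. Whether batch followed temperature or replicate number thus cannot be told. A single clone in culture, with no other cell type beside it, limits what the libraries can say of T cells at large.

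TRiC is built of a pair of stacked rings, each of which holds every subunit once at a fixed place. The rings enclose an unfolded protein, hydrolyse ATP and close a built-in lid, and actin, tubulin and many proteins with WD40 propellers depend on them to fold. Tcp1, Cct2, Cct4 and Cct5 encode the subunits on the side of the ring that binds ATP more tightly, and Cct3, Cct6a, Cct7 and Cct8 those on the side that binds it more weakly. T cells crawl and form contacts by means of a cytoskeleton of actin and tubulin, both among the proteins that TRiC folds.

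The subunit genes lay on separate chromosomes, so none shared a locus with another. In GRCm39, the deposited table placed Tcp1 on chr17:13135216-13143954, Cct2 on chr10:116886902-116899757, Cct3 on chr3:88204442-88229073 and Cct4 on chr11:22940593-22953336. Cct5 was on chr15:31590946-31601992, Cct6a on chr5:129864420-129875284, Cct7 on chr6:85428487-85445459 and Cct8 on chr16:87280213-87292757. The ends of Tcp1, Cct7 and Cct8 met genes on the opposite strand (Acat3 and Mrpl18, Pradc1, and Usp16), with an overlap of up to 1459 bases. Those 4 genes were listed at 26.5 to 213 TPM, and since the strand setting of the read counting is not given in the sources used here, reads in the shared stretches cannot be told apart.

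RefSeq's promoter table for GRCm38.p6 held 9 promoters of 7 of the 8 genes, with a further start for Cct2 and Cct5, and Cct4 not among them. They were read for a short heat shock element (GAANNTTC or TTCNNGAA), an E-box (CACGTG), an ETS site (CCGGAAG or CTTCCGG) and a CCAAT box (CCAAT or ATTGG). The ETS site and the CCAAT box were spelled for both strands, and the other spellings read the same on either strand. The 250 bases before the start site are shown 5′ to 3′ for Cct2, Cct5, Cct6a and Cct7. In the fit with median of ratios scaling and a replicate block, the first 3 were higher at 26°C and Cct7 did not pass. Cct3 was also higher in that fit, is not shown, and held no heat shock element in its window. Capitals mark the ETS site of Cct2, the heat shock element of Cct5 and the CCAAT boxes of Cct6a and Cct7.
Cct2, minus strand, chr10:117063853-117064102: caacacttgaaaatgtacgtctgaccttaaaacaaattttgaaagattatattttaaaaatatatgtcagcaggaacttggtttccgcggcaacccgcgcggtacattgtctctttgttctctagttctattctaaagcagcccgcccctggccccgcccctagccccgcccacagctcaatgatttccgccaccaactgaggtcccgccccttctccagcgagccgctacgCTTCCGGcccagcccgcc
Cct5, minus strand, chr15:31601847-31602096: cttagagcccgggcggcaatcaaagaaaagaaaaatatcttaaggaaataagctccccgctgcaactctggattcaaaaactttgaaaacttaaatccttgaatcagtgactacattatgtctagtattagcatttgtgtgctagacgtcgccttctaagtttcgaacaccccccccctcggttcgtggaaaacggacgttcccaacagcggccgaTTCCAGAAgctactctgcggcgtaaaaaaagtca
Cct6a, plus strand, chr5:129787106-129787355: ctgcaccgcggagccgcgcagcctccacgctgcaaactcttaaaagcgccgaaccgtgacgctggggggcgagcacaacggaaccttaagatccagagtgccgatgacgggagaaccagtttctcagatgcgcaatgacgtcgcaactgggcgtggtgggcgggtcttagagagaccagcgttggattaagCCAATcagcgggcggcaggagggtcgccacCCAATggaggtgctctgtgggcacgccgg
Cct7, plus strand, chr6:85451255-85451504: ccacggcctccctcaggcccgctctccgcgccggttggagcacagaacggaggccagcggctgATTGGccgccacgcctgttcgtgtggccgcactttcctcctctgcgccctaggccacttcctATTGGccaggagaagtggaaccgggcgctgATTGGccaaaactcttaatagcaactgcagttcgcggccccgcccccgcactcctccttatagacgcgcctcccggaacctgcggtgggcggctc

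The heat shock element was found in 3 of the 9 windows of 300 bases that run to 50 bases past the start site. It lay 34 bases before the start in Cct5, 42 before the other start of Cct2 and 24 after the start in Cct6a, and 15.1% of all 32851 promoters in the table held one. The ETS site was found in 3 windows, of Cct2, Cct8 and Tcp1, against 8.86% of all promoters. A CCAAT box was found in 4, of Cct3, Cct6a, Cct7 and Tcp1, against 37.4%, and the E-box in 0, against 7.15%. The windows of the subunit genes held 47.3% to 67.7% G and C, and the median of all promoters was 52.7%. These matches describe letters in a window and draw nothing about binding.

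The libraries held 16899628 to 31290854 recovered reads on genes. Each subunit rested on 5365 to 23435 reads in a library, so that counting error alone was at most 1.37% of a value and the spread between replicates set the precision. Of 12 T cell markers, 11 were expressed and Thy1 was listed at 0 in every library, and their summed level was 3543 to 4968 TPM at 37°C and 4417 to 5186 TPM at 26°C. The signalling genes Lat (log2 fold change 0.75), Cd247 (0.40) and Zap70 (-0.54) had the smallest p of this list, and 0 were called, though Lat was called higher with median of ratios scaling (1.17, limma adjusted p 0.0360). Cd4 was at 310 and 328 TPM in the 2 libraries of replicate 3, and at 0.0351 to 1.30 TPM in the 4 libraries of replicates 1 and 2, which goes against the CD4+ label. Replicate 3 thus differed from the others in a gene that should mark the clone, and whether its cells came from the same stock was not tested. The markers of B cells, of macrophages and of fibroblasts each summed to at most 21.5 TPM in any library, with Ms4a1, Cd14 and Pdgfrb at 0 in all 6 and with Ighm, Cd68, Lyz2 and Col1a1 as the only ones past the filter on low values. Among erythroid markers the globin gene Hba-a1 was at 60.8 to 485 TPM, and Hbb-bs was at 0 in every library. Old and new extraction batches are named in the labels, with no library assigned to either. Results are therefore also given for each replicate number and without replicate 3.

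All 8 subunits were abundant transcripts in both conditions, and none passed the test for a difference with TPM as deposited. TPM, a share of all transcripts in a library, corrects read counts for gene length and sets the total of each library equal, so levels can be compared between genes. Subunit levels ran from 330.0 TPM (Cct8) to 1076 TPM (Cct5), and their means lay between the 97.4th and the 98.7th percentile of the tested genes. Cct6b, the paralog of Cct6a found mainly in testis, was at 0.0898 to 0.354 TPM, so the zeta position of the ring was represented by Cct6a.

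Summed over the 8 genes, TRiC transcripts came to 3606, 4714 and 4964 TPM in non-acclimated replicates 1, 2 and 3, and to 4882, 4655 and 5779 TPM in cold-acclimated replicates 1, 2 and 3. The conditions overlapped, since the sum was lower at 26°C in replicate 2 and higher in replicates 1 and 3. In these bulk libraries, fewer cells that express a gene and less RNA per cell cannot be told apart.

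Among the subunits that bind ATP more tightly, Cct2 had the highest mean in both conditions. It was at 569, 816 and 657 TPM in non-acclimated replicates 1, 2 and 3, and in the cold-acclimated ones at 933, 997 and 971 TPM. The cold-acclimated libraries were all above the non-acclimated ones, and 1.42 times as high on average. The log2 fold change, taken on log2(TPM + 1) as throughout, was 0.52 (95% confidence interval -0.01 to 1.05), with a limma adjusted p of 0.138. With the replicate block the interval was 0.09 to 0.96 (limma adjusted p 0.0635). Intervals given for single subunits are from the fit without the replicate block unless stated.

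Cct4 ran the other way. Its level was 552, 560.0 and 508 TPM in non-acclimated replicates 1, 2 and 3, and 363, 379 and 415 TPM in the cold-acclimated ones. The conditions did not overlap, and the mean was 540.0 ± 28.0 TPM at 37°C and 386 ± 26.5 TPM at 26°C (SD, n = 3), the smallest spread of any subunit. The log2 fold change was -0.48 (95% confidence interval -0.95 to -0.02), with a limma adjusted p of 0.121. With the replicate block the interval was -0.92 to -0.05 (limma adjusted p 0.0752). Without the block, Cct4 was the only subunit at an unadjusted p under 0.05 in limma. With the block, the intervals of Cct2 and Cct5 left out 0 as well. Cct4 was the only subunit below the median of all genes.

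Cct5 differed between replicate numbers as well as between temperatures. It was at 414, 544 and 876 TPM in non-acclimated replicates 1, 2 and 3, and in the cold-acclimated ones at 766, 676 and 1076 TPM. Within each replicate number the cold-acclimated library was higher, but replicate 3 at 37°C exceeded replicates 1 and 2 at 26°C. The log2 fold change was 0.50 (95% confidence interval -0.28 to 1.28). With the replicate block the interval was 0.02 to 0.98 (limma adjusted p 0.0925).

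Tcp1, the gene that gave the complex its name, was at 384, 443 and 580.1 TPM in non-acclimated replicates 1, 2 and 3, and in the cold-acclimated ones at 442, 373 and 649.8 TPM. The conditions overlapped and replicate 2 was lower at 26°C. The log2 fold change of 0.04 (95% confidence interval -0.63 to 0.71) was the nearest to 0 of the subunits, and its sign turned with quantile normalization (-0.04).

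On the side that binds ATP more weakly, Cct3 was at 402, 582 and 585 TPM in non-acclimated replicates 1, 2 and 3, and in the cold-acclimated ones at 589.6, 603 and 708 TPM. The conditions did not overlap, by a margin of a few TPM. The log2 fold change was 0.29 (95% confidence interval -0.27 to 0.86).

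Cct6a, the somatic zeta subunit, was at 339.9, 705 and 751 TPM in non-acclimated replicates 1, 2 and 3, and in the cold-acclimated ones at 731, 777 and 803 TPM. One library, non-acclimated replicate 1, was low, and the other 5 lay close together. The log2 fold change was 0.45 (95% confidence interval -0.33 to 1.22) with all libraries and 0.08 without that library.

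Cct7 was at 615, 629 and 426 TPM in non-acclimated replicates 1, 2 and 3, and in the cold-acclimated ones at 624, 469.8 and 441 TPM. It was the one subunit that was lowest in replicate 3 in both conditions. The log2 fold change was -0.12 (95% confidence interval -0.72 to 0.49) with TPM as deposited and 0.30 with median of ratios scaling, so its sign depended on the scaling.

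Cct8, finally, was at 330.0, 436 and 581 TPM in non-acclimated replicates 1, 2 and 3, and in the cold-acclimated ones at 433, 380.2 and 713 TPM. The conditions overlapped, as for Tcp1, and replicate 2 was again lower at 26°C. The log2 fold change was 0.16 (95% confidence interval -0.60 to 0.93).

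**Figure D1:**
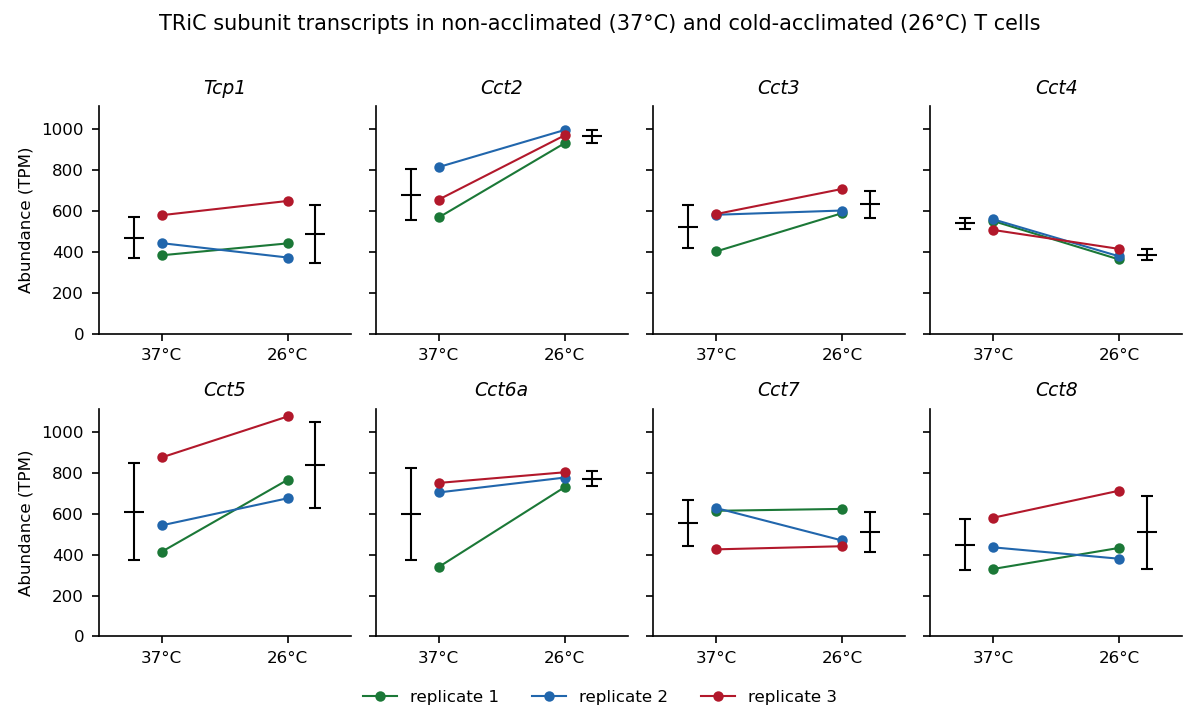
Abundance (TPM, linear axis from 0) of the 8 TRiC subunit transcripts in each library, with lines joining libraries of the same replicate number and black marks for the mean ± SD of 3 libraries. Cct2 and Cct3 lie higher and Cct4 lower at 26°C with no overlap, and replicate 3 is the highest of both conditions for Tcp1, Cct3, Cct5, Cct6a and Cct8.

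In the limma fit, 0 of the 8 subunits were called higher and 0 lower. A call needed a size of 1 or more in log2 fold change together with an adjusted p (Benjamini-Hochberg) below 0.05. Of all genes tested, 2.63% were called higher and 16.0% lower by this rule. At the adjusted p alone the counts were again 0 and 0, against 3.30% of all genes higher and 17.4% lower, and adjusted p ranged from 0.121 to 0.939. The count at an unadjusted p under 0.05 was 1 (Cct4) in this fit and 3 (Cct2, Cct4 and Cct5) with the replicate block. The share of all genes at that unadjusted p is not given here. In limma voom on the recovered reads, 0 subunits passed the adjusted p. Cct2 and Cct3 were higher without overlap between the conditions, as were 9.69% of all genes, and Cct4 was lower without overlap, as were 31.4% of all genes. With median of ratios scaling, 4 subunits (Cct2, Cct3, Cct5 and Cct6a) were higher without overlap and 0 were lower, against 21.0% and 19.8% of all genes, so the separation of Cct4 rested on the scaling.

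The log2 fold change was above 0 for 6 of the 8 subunits, against 33.5% of all genes. The median over the subunits was 0.23, whereas the median of all tested genes was -0.34, and 7 of 8 subunits lay above the latter. The subunits were thus 0.56 above all genes at the median, and 0.79, 0.37 and 0.46 above them within replicates 1, 2 and 3. Without replicate 3 the distance was 0.58. It depended on the processing, being 0.30 when genes with low values were kept and 0.08 with quantile normalization, which left 5 of 8 subunits above 0. As the members were chosen with results of these data known, these counts describe the subunits and are no test.

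Scaling between libraries moved every subunit by about the same amount. The study's methods name the median of ratios, within DESeq2 on read counts, and here it was applied to TPM before the limma fit. On this scaling the median log2 fold change of all genes was 0.03 and that of the subunits 0.64, with 7 of 8 above 0. Cct2 then passed the adjusted p threshold, with a log2 fold change of 0.94 (95% confidence interval 0.41 to 1.46) and a limma adjusted p of 0.0314, which made 1 of 8 subunits against 8.64% of all genes. Cct4 was at -0.07 (95% confidence interval -0.52 to 0.38) on this scaling.

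With the replicate number as a block in addition, 4 of 8 subunits were higher at the adjusted p, against 16.9% of all genes. They were Cct2 (limma adjusted p 0.0165), Cct5 (0.0236), Cct3 (0.0327) and Cct6a (0.0469), with log2 fold changes of 0.94, 0.91, 0.71 and 0.86. Cct8 (0.58, adjusted p 0.0548 in limma) and Tcp1 (0.45, adjusted p 0.0891 in limma) did not pass. None of the 4 reached a log2 fold change of 1, and the block without the scaling gave 0 calls in either direction, against 3.75% of all genes higher and 21.9% lower at both thresholds.

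**Figure D2:**
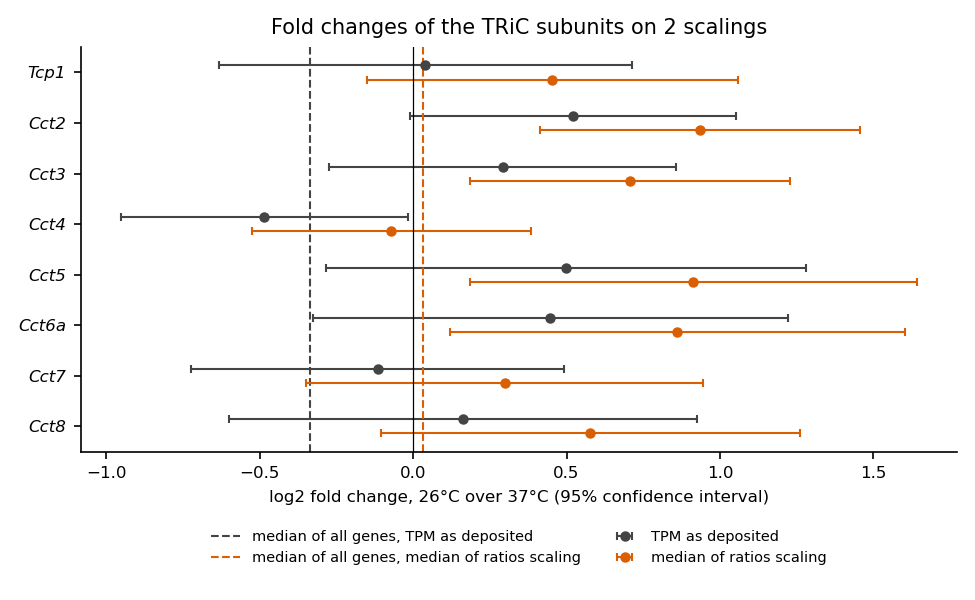
Log2 fold change of each subunit (26°C over 37°C, horizontal axis) with its 95% confidence interval from limma, with TPM as deposited (grey) and after median of ratios scaling (orange), 3 libraries a group. Dashed lines mark the median of all tested genes on each scaling, at -0.34 and 0.03, and Cct4 lies below both.

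Taken replicate by replicate, 5 subunits gave the same sign in all 3 pairs, and their fold changes kept that sign in every alternative fit. The log2 difference of Cct2 was 0.71, 0.29 and 0.56 in replicates 1, 2 and 3. For Cct5 it was 0.89, 0.31 and 0.30, and for Cct3 0.55, 0.05 and 0.27. Each of these is the difference of a single pair, without an error of its own.

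Cct6a was also higher in all pairs, by 1.10, 0.14 and 0.10, so that replicate 1 carried most of its difference. Cct4 was lower in all pairs with TPM as deposited, with log2 differences of -0.60, -0.56 and -0.29. Tcp1, Cct7 and Cct8 gave mixed signs, with replicate 2 at -0.25, -0.42 and -0.20.

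Replicate 3 also stood apart in Tcp1, Cct5, Cct7 and Cct8, though by far less than in Cd4. Its mean over both temperatures was 976 TPM for Cct5, against 590.2 and 609.8 TPM in replicates 1 and 2. For Cct8 it was 647 TPM against 382 and 408 TPM, and for Tcp1 615 TPM against 413 and 408 TPM. Cct7, at 434 TPM against 619 and 549 TPM, was the reverse. Cct4 hardly differed between replicate numbers, with means of 458, 469 and 462 TPM. For Cct2, replicate 3 (814 TPM) lay between replicates 1 and 2 (751 and 906 TPM). For Cct3 (496, 593 and 647 TPM) and Cct6a (535, 741 and 777 TPM), replicate 3 was nearer to replicate 2 than replicate 1 was.

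A share within the complex does not depend on how libraries are scaled. Each ring holds every subunit once, so equal transcript shares would be 12.5%. Cct4 made up 15.3%, 11.9% and 10.2% of the summed TRiC TPM in non-acclimated replicates 1, 2 and 3, and 7.44%, 8.14% and 7.18% in the cold-acclimated ones. It was the only subunit whose share did not overlap between the conditions, at 12.5% ± 2.59 and 7.59% ± 0.493 (SD, n = 3).

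The share of Cct2 moved the other way in each replicate, from 15.8%, 17.3% and 13.2% to 19.1%, 21.4% and 16.8%, yet the conditions overlapped because replicate 3 was low in both. The share of Cct5 was higher at 26°C by 4.21, 2.99 and 0.980 percentage points in replicates 1, 2 and 3. Cct7 was lower in share in each replicate, with differences of -4.27, -3.24 and -0.945 percentage points. Cct6a had mixed signs, with differences in share of 5.54, 1.75 and -1.23 percentage points. The mean shares of Tcp1, Cct3 and Cct8 moved by at most 1.14 percentage points. Without non-acclimated replicate 2 or 3 the number of subunits with no overlap in share was 3, and without cold-acclimated replicate 3 it was 4. In an exact permutation test of the mean share, Cct4 gave a p of 0.1, the smallest that 3 against 3 libraries can give. After adjustment over the subunits the permutation p was 0.533 for Cct4 and no smaller for any other. The differences in share are thus a description.

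Cct4 was closer in level to Cct2 in non-acclimated T cells than after cold acclimation, a pair chosen after its values were seen. The ratio of Cct2 to Cct4 was 1.03, 1.46 and 1.29 in non-acclimated replicates 1, 2 and 3. In the cold-acclimated replicates it was 2.57, 2.63 and 2.34. The ratio of the most to the least abundant subunit was 1.86, 1.87 and 2.06 at 37°C and 2.57, 2.67 and 2.59 at 26°C, so subunit levels were less even after cold acclimation in each replicate.

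**Figure D3:**
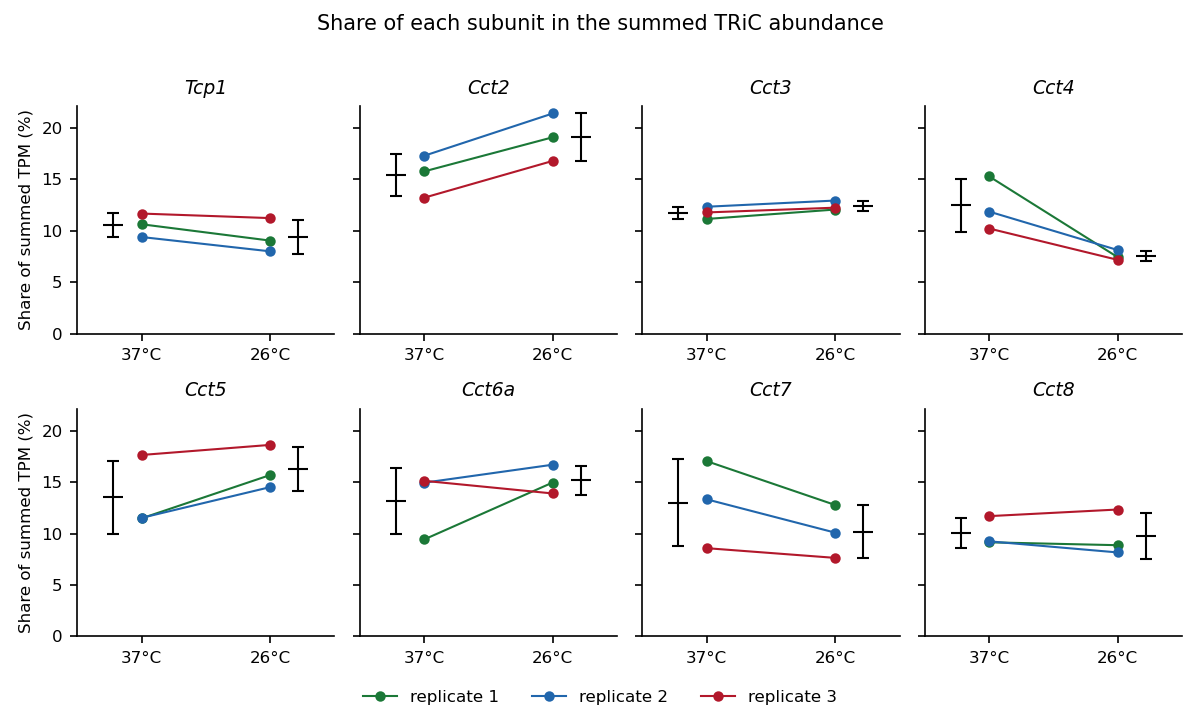
Share of each subunit in the summed TRiC TPM (percent, axis from 0) by library, with lines joining libraries of the same replicate number and black marks for the mean ± SD of 3 libraries. The share of Cct4 is 10.2% or more at 37°C and 8.14% or less at 26°C, and the share of Cct2 is higher at 26°C in each of the 3 replicates.

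By mean level at 37°C the order was Cct2, Cct5, Cct6a, Cct7, Cct4, Cct3, Tcp1 and Cct8, from 680.5 to 449 TPM. Every neighbour in that order overlapped the next over the 3 libraries. At 26°C the order was Cct2, Cct5, Cct6a, Cct3, Cct7, Cct8, Tcp1 and Cct4, from 967 to 386 TPM. There Cct6a (731 to 803 TPM) was above Cct3 (589.6 to 708 TPM) without overlap, and the other neighbours overlapped. Cct4 was thus the fifth at 37°C and the last at 26°C.

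The genes whose levels followed the mean of the subunits most closely over the 6 libraries were Snrpa1, a spliceosomal protein gene (Pearson's r = 0.995), Psmb3, a proteasome subunit gene (0.993), Idh3a of the citric acid cycle (0.992), Srsf3, a splicing factor gene (0.985), and C1d, an exosome cofactor gene (0.979). They were the closest of 8268 genes with a mean of at least 10 TPM. The points share 2 temperatures and 3 replicate numbers, so the values are a description. Psmb3, for example, was at 472, 637 and 646 TPM in the non-acclimated replicates and in the cold-acclimated ones at 647, 591 and 778 TPM.

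Prefoldin hands unfolded actin and tubulin to TRiC, and 0 of its 6 subunit genes were called in either direction. Of all genes, 2.63% were called higher and 16.0% lower. Pfdn2 came nearest, at 64.7, 73.1 and 93.8 TPM in non-acclimated replicates 1, 2 and 3 and 123, 126 and 132 TPM in the cold-acclimated ones. Its log2 fold change was 0.73 (limma adjusted p 0.0555), which passed with the replicate block (adjusted p 0.0297) and with median of ratios scaling (1.14, adjusted p 0.0180). Pfdn6 was at 106, 156 and 159 TPM and then at 48.2, 72.6 and 120.2 TPM, with a log2 fold change of -0.87 (limma adjusted p 0.122, and 0.0260 with the block). Pfdn5, the most abundant, was at 306 to 378 TPM and then 401 to 503 TPM (0.40), and Pfdn4 was at 0.24. Pfdn1 (-0.04) and Vbp1 (-0.03) were close to 0, and both turned to above 0 with median of ratios scaling.

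Phosducin-like proteins bind TRiC directly and modulate its folding of substrates. Pdcl3, which acts on actin and tubulin folding, was at 67.4, 88.0 and 67.4 TPM in non-acclimated replicates 1, 2 and 3 and fell to 29.5, 21.0 and 41.6 TPM in the cold-acclimated ones, by 1.29 on the log2 scale (limma adjusted p 0.0240). It was the 1 of 3 tested members of this group that was called, against 16.0% of all genes called lower. With median of ratios scaling its limma adjusted p was 0.0545 and its log2 fold change -0.88. Pdcl, which serves G protein beta subunits, was at -0.78 (limma adjusted p 0.0987) and Txndc9 at 0.26. Pdcl2 was listed at 0 in every library.

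The PAQosome, a co-chaperone assembly of HSP90 that contains prefoldin-like subunits, had 3 of its 9 tested genes called lower and 0 higher. The shares of all genes were 16.0% and 2.63%. Dnaaf10 was at 19.9, 22.0 and 18.6 TPM in the non-acclimated replicates and at 4.18, 1.62 and 9.11 TPM in the cold, and fell by 2.03 on the log2 scale (limma adjusted p 0.0243). Its ATPases Ruvbl1 and Ruvbl2 fell by 1.35 (limma adjusted p 0.0381) and 1.05 (0.0369). With median of ratios scaling 1 of the 3 calls was left, Dnaaf10, against 8.60% of all genes called lower.

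Among actin genes and their relatives 1 of 7 was called higher and 0 lower, against 2.63% and 16.0% of all genes. Actl6a, an actin-related subunit of chromatin remodellers, rose from 47.8, 50.2 and 60.4 TPM to 103.6, 169.7 and 79.4 TPM, by 1.08 on the log2 scale (limma adjusted p 0.0465). Actb, for the beta-actin that TRiC folds, was at 3215, 2519 and 6245 TPM in non-acclimated replicates 1, 2 and 3, and in the cold-acclimated ones at 4672, 1679 and 3681 TPM, and the conditions overlapped. Actr2 (-0.87) and Actr1a (-0.43) did not pass.

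Of the 11 tested tubulin genes, 3 were called lower and 0 higher, and 10 had a log2 fold change below 0. Among all genes, 16.0% were called lower and 2.63% higher, and 33.5% had a log2 fold change above 0. Tubb5, the main beta-tubulin gene here, fell from 2100.5, 1660.0 and 1805 TPM to 392, 324 and 946 TPM, by 1.90 on the log2 scale (limma adjusted p 0.0201). Tubb4b fell by 1.35 (limma adjusted p 0.0476) and Tubg1, for gamma-tubulin of the centrosome, by 1.54 (0.0493). The replicate block raised the count to 5, against 21.9% of all genes, and median of ratios scaling lowered it to 1, Tubb5, against 8.60%. In replicate 3, Tubb5 was higher at 26°C than in the other cold-acclimated libraries.

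WD40 proteins and other clients gave 3 of 23 tested genes called lower and 0 higher, against 16.0% and 2.63% of all genes. Fzr1, an activator of the anaphase-promoting complex, fell from 131, 155 and 124 TPM to 40.6, 33.2 and 58.4 TPM, by 1.64 on the log2 scale (limma adjusted p 0.00973). Rptor, the mTORC1 scaffold, fell by 1.00 (limma adjusted p 0.0352), and Plk1, a mitotic kinase named after its values were seen, by 1.96 (0.0480). Vhl, the tumour suppressor that needs TRiC to fold, rose from 35.1, 36.0 and 23.9 TPM to 65.8, 64.9 and 50.8 TPM, by 0.93 on the log2 scale (limma adjusted p 0.0406), just under the fold threshold. Under median of ratios scaling the counts were 1 lower (Fzr1) and 2 higher, against 8.60% and 6.87% of all genes. The 2 higher were Vhl at 1.33 and Ppp2r2d, for a phosphatase subunit, at 1.03. Rptor (-0.61, limma adjusted p 0.138) and Plk1 (-1.55, limma adjusted p 0.0796) were not called there.

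Tubulin leaves TRiC for a set of dedicated cofactors, of which 1 of 6 was called lower, against 16.0% of all genes. Arl2, the small GTPase of that set, fell from 60.6, 57.5 and 52.5 TPM to 22.1, 16.0 and 25.9 TPM, by 1.40 on the log2 scale (limma adjusted p 0.0124), and Tbcd (-0.80) and Tbcb (-0.47) did not pass. On the median of ratios scaling Arl2 passed the adjusted p (0.0288 in limma) and fell just short of the fold threshold.

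The chaperonin of mitochondria is a separate machine, and 0 of 5 tested genes were called, against 2.63% of all genes higher and 16.0% lower. Its subunit gene Hspd1 was at 0.00 and its lid gene Hspe1 at -0.12, both in log2 fold change. Hspa9, the mitochondrial HSP70, was at 378, 398 and 521 TPM and then at 778, 600.5 and 929.7 TPM (0.82, limma adjusted p 0.0593, and 0.0175 with the block). It was called higher with median of ratios scaling, at 1.24 (limma adjusted p 0.0196). Trap1 was at -1.42 (limma adjusted p 0.0764, and 0.0189 with the block), and Grpel1 at 0.19.

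Among 16 tested genes of cytosolic HSP70 and HSP90, 1 was called lower and 0 higher, against 16.0% and 2.63% of all genes. Chordc1, an HSP90 cofactor, fell from 94.2, 116 and 128 TPM to 18.6, 17.6 and 48.6 TPM, by 2.11 on the log2 scale (limma adjusted p 0.0148). Cdc37 (-0.74) and Hspa8 (-0.56) were not called, and Cdc37 passed the adjusted p with the block (0.0265 in limma). Of the regulators known for TRiC and chaperone genes, Hsf1 was at -0.09 and turned to 0.31 with median of ratios scaling, Hsf2 was at 0.45, Myc at 0.56 and Max at 0.14, and 0 of the 4 passed. Hsf2 passed the adjusted p with that scaling and the block together (0.0336 in limma).

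Over these 9 groups, 12 of 86 tested genes were called lower and 1 higher (14.0% and 1.16%, against 16.0% and 2.63% of all genes). Their median log2 fold change was -0.38, beside -0.34 for all genes. The median of the TRiC list was 0.23 with TPM as deposited and 0.64 with median of ratios scaling, above those of the 9 groups on both, while the 4 regulators, which are outside these groups, had medians of 0.29 and 0.69. With median of ratios scaling the counts were 4 lower and 5 higher, against 8.60% and 6.87% of all genes, so the balance of directions rested on the scaling. The counts also moved when single libraries were left out. Leaving out non-acclimated replicate 1, 2 or 3 gave 1, 0 and 7 lower calls. Leaving out cold-acclimated replicate 1, 2 or 3 gave 1, 2 and 21. The shares of all genes called in these fits are not given here, so these counts draw nothing about the groups.

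All 20 proliferation markers had a log2 fold change below 0, and 4 of them, Top2a, Aurkb, Bub1 and Tpx2, were called lower, against 16.0% of all genes. With the replicate block 9 were called lower, against 21.9% of all genes. With median of ratios scaling 3 were called lower, without Top2a, against 8.60% of all genes. Without both libraries of replicate 3 the count was 19, against 25.5% of all genes. Their summed level was 4103 to 4918 TPM at 37°C and 762 to 4320 TPM at 26°C. Aurkb, a mitotic kinase gene, was at 201, 170.4 and 163 TPM in non-acclimated replicates 1, 2 and 3 and in the cold-acclimated ones at 39.4, 17.8 and 86.3 TPM. The marker list was thus lowest in cold-acclimated replicates 1 and 2, where Tubb5 and Chordc1 were lowest too. Its part in these results was not tested. Without both libraries of replicate 3, the calls over the 9 groups were 21 lower and 1 higher, against 25.5% and 5.41% of all genes.

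**Figure D4:**
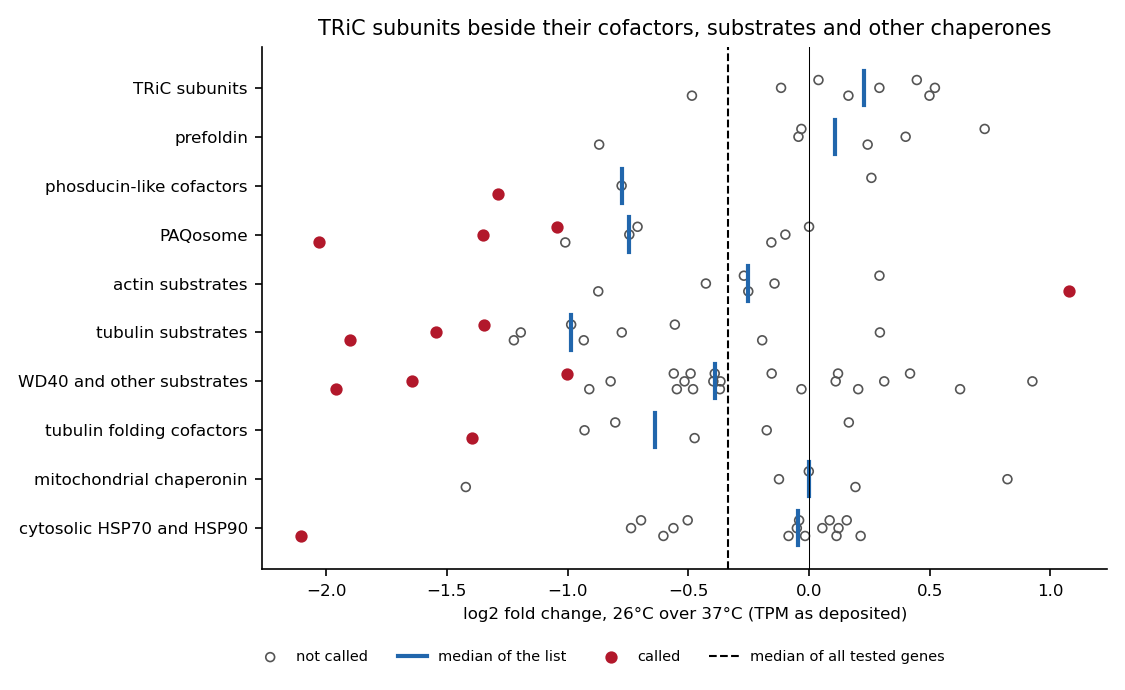
Log2 fold change (26°C over 37°C, TPM as deposited) of each tested gene of the TRiC subunits and 9 related groups, 1 row a group, with filled red points for genes called by limma at both thresholds and blue bars for group medians. The TRiC row holds 0 called genes around a median of 0.23, and the tubulin row lies around -0.99 with 3 called genes.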

How the data were processed

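Poly(A)+ RNA of 3 non-acclimated and 3 cold-acclimated cultures of D10 cells was sequenced as strand-specific paired-end libraries. Per the study's methods and the submitters' processing notes, the authors trimmed reads with Trimmomatic 0.38, checked them with FastQC 0.11.7, aligned them to GRCm39 with HISAT2 2.1.0, counted reads per gene with featureCounts 1.6.3 and ran DESeq2. What the authors deposited, and what was analysed, is a table of TPM. Gene lengths, annotation release and strand setting are not given in the sources used.

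The steps of the TPM values gave whole reads for 100% of the 21195 genes above 0 (tolerance 1e-06 reads). limma 3.58.1 in R 4.3.3 was fitted with a mean-variance trend to log2(TPM + 1) of all 12227 genes whose mean TPM was 1 or more, without a block, and p was adjusted over all of them by Benjamini-Hochberg. This scale understates fold changes of genes with low TPM. Other values were computed with Python 3.11.15, pandas 2.3.3 and numpy 2.4.6, and the fit was tested on simulated data.

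The replicate number pairs the libraries. Deviations from the group means correlated at 0.48, 0.50 and 0.51 across genes for libraries of the same number, and at -0.41 to 0.02 otherwise. Alternatives were a pseudocount of 0.1, no filter, median of ratios scaling, quantile normalization, the replicate block with and without that scaling, limma voom on recovered reads, and leaving out libraries. No depth correction beyond these was applied. The p-values measure the spread between these cultures, a single clone by label. Without the block that spread takes in differences between replicate numbers that both temperatures share.

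The subunits, the 18 gene lists (168 entries, of which 167 matched) and the comparisons were chosen with earlier results of these data known. The genes named are the subunits, Cct6b, all prefoldin and phosducin-like genes, the 3 genes of each other list with the smallest p, genes that overlap a subunit gene, the 5 genes most like the subunit mean with a mean TPM of at least 10, Hsf1, Hsf2 and Myc. Others are given as examples chosen after their values were seen. Promoter sequences are RefSeq's on GRCm38.p6 and were matched by symbol.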

Additional observations from a re-analysis of the deposited data

How the results depend on the processing

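The subunits kept 0 genes called at both thresholds and 0 genes lower at the adjusted p in all 16 alternative fits, whereas the count higher at the adjusted p was 1 with median of ratios scaling, 4 with the replicate block and that scaling, and 0 in the other fits, all fits without a library or a replicate number included (range 0 to 0). The replicate block alone changed no subunit call. It gave 16 lower and 1 higher calls in the 9 related groups, with 21.9% and 3.75% of all genes called. Without the block the calls were 12 and 1, with 16.0% and 2.63% of all genes. The distance of the subunits from all genes at the median (0.56) was 0.297 with no filter and 0.0769 with quantile normalization, and 0.388 to 0.708 when libraries were left out. Lower calls in the 9 groups numbered 4 with no filter, 4 with median of ratios scaling, 6 with quantile normalization and 5 with the block and scaling. The higher calls were 0, 5, 2 and 5, with 2 in limma voom. With median of ratios scaling 8.60% of all genes were called lower and 6.87% higher. The shares of all genes in the others of these fits are not given here, so their counts draw nothing about the groups. Leaving out libraries, an alternative for these counts that was chosen after seeing the data, gave 0 to 21 lower and 0 to 2 higher calls, with fewer samples in each fit. Without both libraries of replicate 3, 25.5% of all genes were called lower and 5.41% higher. The shares for the other omissions are not given here. Subunit shares without overlap numbered 1 to 4 when a library was left out.

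Signs turned for genes near 0. Tcp1 was at -0.0398 with quantile normalization. With median of ratios scaling, with or without the block, Cct7 was at 0.30, Pfdn1 at 0.37, Vbp1 at 0.38 and Hsf1 at 0.31, and in limma voom they were at 0.0123, 0.0841, 0.105 and 0.0175. With quantile normalization Pfdn1 was at 0.13 and Hsf1 at 0.15. Leaving out libraries gave -0.19 to 0.21 for Tcp1, -0.297 to 0.0362 for Cct7, -0.11 to 0.37 for Cct8, -0.135 to 0.0290 for Pfdn1, -0.47 to 0.20 for Vbp1, -0.0318 to 0.379 for Grpel1 and -0.27 to 0.22 for Hsf1. The cause was not tested. The counting error of the subunits was at most 1.37%, and other effects of depth were not tested.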

Other observations

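Small nucleolar RNA genes lie inside some TRiC genes on the same strand, and 2 of them were higher at 26°C while their host transcripts were not called. Gm26130, annotated as a snoRNA gene inside Tcp1 (GRCm39 chr17:13138472-13138609), was at 6.34, 1.76 and 6.63 TPM in non-acclimated replicates 1, 2 and 3 and in the cold-acclimated ones at 23.5, 28.2 and 19.2 TPM. The conditions did not overlap, and the log2 fold change was 2.18 (limma adjusted p 0.0162), beside 0.04 for Tcp1. The call was also made by limma voom on the recovered reads (adjusted p 0.0368), and it was lost without cold-acclimated replicate 1 (0.0630) or 2 (0.0634).

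Gm23245, annotated as a snoRNA gene inside Cct6a (GRCm39 chr5:129866603-129866737), was at 1.08, 5.41 and 4.93 TPM and then at 24.8, 41.1 and 7.98 TPM. Its log2 fold change was 2.32 (limma adjusted p 0.0435), beside 0.45 for Cct6a, but limma voom gave an adjusted p of 0.0826 and the difference was 0.60 on the log2 scale in replicate 3. Without non-acclimated replicate 1 the adjusted p in limma was 0.125, and leaving out any library other than cold-acclimated replicate 3 lost the call, with adjusted p of 0.0600 to 0.134. Both genes rest on few reads, in libraries selected for poly(A). Gm26130 held 2 to 11 reads at 37°C and 27 to 35 at 26°C, and Gm23245 held 1 to 8 and 11 to 50. Gm26130 meets an exon of Tcp1, so reads from the host transcript cannot be told apart from its own. Gm23245 meets no exon of Cct6a, and there the same holds for reads from unspliced host transcript. Snora20 and Snora15, also inside Tcp1 and Cct6a, held at most 1 read in any library.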
